A study of Mus musculus with 6 samples.

Results

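The 38 genes described here encode the machinery that shows peptides to T cells, together with interferon-inducible GTPases that are switched on by the same signals. They were taken by symbol from the deposited tables, which held 48395 symbols in 6 libraries. All 38 were found and passed the filter on low counts, which left 16739 genes for testing. They were divided by role into 10 MHC class II genes, 8 MHC class I genes, 9 genes of peptide processing and 11 GTPase genes. The RNA came from LSK cells of mouse bone marrow. LSK cells lack lineage markers and carry Sca-1 and c-Kit, and they include the blood stem cells and the earliest progenitors. The design was 3 libraries labelled Hmga2 against 3 labelled vector.

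In the libraries labelled Hmga2 the marrow had been transduced with a lentivirus expressing Hmga2, an architectural protein of chromatin. In the vector libraries it had been transduced with the lentivirus alone. Every library shares the rest of its history. The marrow came from donors with the Mx1Cre transgene and 1 Jak2 allele carrying the activating V617F change, and the donors had been primed with 5-fluorouracil. Transduced cells were given to lethally irradiated C57BL/6 recipients, and marrow was harvested 32 weeks after transplantation. Mx1Cre drives the recombinase from an interferon-inducible promoter, in all 6 libraries alike. The sorted cells of a recipient can include cells that survived irradiation and cells that took up no virus. The replicates are described as biological.

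Interferon gamma acts through the kinases Jak1 and Jak2 to induce Irf1, the class II transactivator Ciita and the class I transactivator Nlrc5. Class I molecules display peptides cut by the proteasome in the cytosol, carried into the endoplasmic reticulum by Tap1 and Tap2 and loaded with the help of Tapbp. Class II molecules display peptides made in endosomes. The invariant chain Cd74 blocks their groove until the DM molecule loads a peptide, and the DO molecule restrains DM. Stem and progenitor cells express class I strongly and class II at lower levels. Guanylate-binding proteins (Gbp) and immunity-related GTPases (Irg) attack the membranes around intracellular microbes.

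Of the promoters found in the reference, those of class II genes and of GTPases differ in the motifs they hold. Shown are 3 of each, for the genes with the smallest p-values of their class, with Igtp, the highest GTPase per length. Each is the 120 bases before the RefSeq start (build GRCm38.p6, the assembly also called mm10), written 5′ to 3′ on the gene's strand. Capitals mark CCAAT or its reverse complement, the Y box that NF-Y binds, in the class II genes. In the GTPases they mark GAAANNGAA or its reverse complement, an ISRE-like motif of interferon-response elements.
H2-Aa (chr17:34287824-34287943, minus strand): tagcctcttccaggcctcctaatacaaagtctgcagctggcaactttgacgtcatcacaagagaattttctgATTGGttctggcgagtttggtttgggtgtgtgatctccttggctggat
H2-Eb1 (chr17:34305747-34305866, plus strand): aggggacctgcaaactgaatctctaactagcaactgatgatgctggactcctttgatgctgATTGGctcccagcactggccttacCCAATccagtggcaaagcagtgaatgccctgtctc
H2-Ob (chr17:34238785-34238904, plus strand): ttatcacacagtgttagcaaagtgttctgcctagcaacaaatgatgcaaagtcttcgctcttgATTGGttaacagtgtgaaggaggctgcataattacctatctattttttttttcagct
Gbp2 (chr3:142620543-142620662, plus strand): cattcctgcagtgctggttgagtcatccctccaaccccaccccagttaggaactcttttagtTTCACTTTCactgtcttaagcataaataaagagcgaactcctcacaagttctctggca
Irgm2 (chr11:58214857-58214976, plus strand): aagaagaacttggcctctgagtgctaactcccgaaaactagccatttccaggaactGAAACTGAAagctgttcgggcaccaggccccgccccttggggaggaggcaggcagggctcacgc
Igtp (chr11:58199436-58199555, plus strand): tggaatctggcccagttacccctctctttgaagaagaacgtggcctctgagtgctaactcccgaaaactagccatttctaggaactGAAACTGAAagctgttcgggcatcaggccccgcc

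RefSeq promoter windows, of 250 bases before to 50 after the start, were matched for 29 of the 38 genes. No window was found for Ciita, Cd74 and H2-Ab1 of class II, nor for the GTPases Gbp4, Gbp6, Gbp9 and Iigp1. The Y box was in the windows of all 7 class II genes found and 7 of 7 class I genes, against 3 of 8 peptide processing genes and 2 of 7 GTPases. The shares given for comparison are of all genes with a window in the reference, counted in the same way, a gene counting if any of its windows held the motif. For the Y box that share was 41.1%. The ISRE-like motif was in 7 of 7 GTPases and 0 of 7 class II genes, with 2 of 7 class I genes and 2 of 8 processing genes, against 9.76% of all genes. A GAS-like motif (TTCNNNGAA on either strand, the form of interferon gamma-activated sites) was in 4 of 7 GTPases and 1 of 7 class II genes, against 9.55% of all genes. A kappa B-like motif (GGGNNTTCC on either strand) was in 4 of 7 class I genes and 2 of 7 class II genes, against 6.58% of all genes. The ISRE-like and GAS-like searches share letters and could overlap. The printed Igtp and Irgm2 windows share a run of 38 bases, so they are not separate observations of a motif. Gbp2, Igtp and Irgm2 were chosen for printing after their values were seen.

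Hmga2 itself, measured to check the labels, had 2.63, 6.63 and 5.91 CPM (read counts scaled to library size) in the libraries labelled Hmga2, against 5.96, 5.04 and 7.03 CPM in the vector libraries, a log2 fold change of -0.25 (standard error, SE, 0.35, adjusted p = 0.934, edgeR). The groups overlapped. Whether the introduced sequence is counted under this symbol is not known, so these values do not settle whether Hmga2 was overexpressed. The label is therefore used as a label below, and no direction stands for an effect of Hmga2. Total counts ranged from 24818011 to 35471806, and every member was measured with at least 14 reads in each library. Immunoglobulin transcripts were abundant in Hmga2 replicate 2 and in vector replicates 1 and 3. There Igha, an immunoglobulin heavy chain gene of plasma cells, had 2535, 8930 and 5469 CPM, against 193 to 236 CPM in the other 3 libraries. Summed Y-linked transcripts also differed, and came to 191, 5.33 and 129 CPM in the libraries labelled Hmga2 and 6.73, 21.4 and 5.24 CPM in the vector libraries. Values are therefore also given within the immunoglobulin-rich libraries and within the others. Kit, which defines LSK cells, had 375, 372 and 345 CPM in the libraries labelled Hmga2, against 354, 296 and 248 CPM in the vector libraries. Ly6a, which encodes Sca-1, lay between 32.2 and 45.5 CPM in the libraries labelled Hmga2 and between 19.3 and 59.1 CPM in the vector libraries. Summed over 8 LSK markers the levels did not overlap, at 1410 to 1477 CPM in the libraries labelled Hmga2 and 1142 to 1309 CPM in the vector libraries. Singly, all 8 overlapped, and 6 had a higher mean in the libraries labelled Hmga2. Cd34 and Kit made up most of the sum. The sum of the 6 marrow stroma markers did not overlap either. It was 5.26 to 6.85 CPM in the libraries labelled Hmga2 and 2.58 to 2.93 CPM in the vector libraries. Singly, 4 of the 6 overlapped, and Cxcl12 and Col1a1 were higher in every library labelled Hmga2, against 5.28% of all genes. Cxcl12 was at 2.54 to 4.31 CPM in the libraries labelled Hmga2 and 0.221 to 0.999 CPM in the vector libraries. It passed in DESeq2 (adjusted p = 0.0088) and not in edgeR (adjusted p = 0.855). Of 7 neutrophil and granulocyte markers, 6 (Ltf, Ngp, Camp, S100a8, S100a9 and Elane) were lower in every library labelled Hmga2 than in any vector library. Over all genes tested, this held for 985 of 16739. Elane, an elastase of early granulocytes, had 187, 173 and 149 CPM in the libraries labelled Hmga2, against 348, 843 and 253 CPM in the vector libraries. The granule gene Ltf was at or below 0.618 CPM in the libraries labelled Hmga2 and at or above 2.17 CPM in the vector libraries. Ltf and Ngp passed in DESeq2 (adjusted p = 0.020 and 0.0135) and not in edgeR (adjusted p = 0.855 for both). The seventh marker, Mpo, overlapped and made up most of the summed level, which was 2167 to 3694 CPM in the libraries labelled Hmga2 and 3357 to 7205 CPM in the vector libraries. The 8 T and NK cell markers summed to 152 to 179 CPM in the libraries labelled Hmga2 and 130 to 232 CPM in the vector libraries, nearly all of it Nkg7, with Cd3e at or near 0. Plasma cell markers summed to 314 to 3900 CPM in the libraries labelled Hmga2 and 333 to 12597 CPM in the vector libraries. The part of these markers in the results was not tested. In bulk samples, fewer cells of a type and less RNA per cell cannot be told apart.

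Across the 38 genes, 35 had a positive log2 fold change (labelled Hmga2 over vector), with a median of 0.28, against 50.4% positive and a median of 0.00 over all genes tested. No difference passed the adjusted threshold. By edgeR's quasi-likelihood test, 0 of the 38 were called at an adjusted p under 0.05, with 0 (0%) of the 16739 genes called. Without adjustment, 935 of all genes fell under 0.05, 373 with a positive and 562 with a negative log2 fold change. DESeq2 called 0 of the 37 that it gave an adjusted p, against 71 (0.425%) of all genes. At an unadjusted p under 0.05, 7 of the 38 (18.4%) were higher in the libraries labelled Hmga2, against 2.23% of all genes, and 0 were lower. In 9 of the 38 (23.7%) the groups did not overlap, all higher in the libraries labelled Hmga2, against 5.28% of all genes. Within the immunoglobulin-rich libraries (Hmga2 replicate 2 against vector replicates 1 and 3) 23 were positive and 15 negative, and within the others (replicates 1 and 3 labelled Hmga2, with vector replicate 2) 37 were positive and 1 negative. These genes share regulators and 19 of them lie on chromosome 17, so they are not separate observations.

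**Figure D1:**
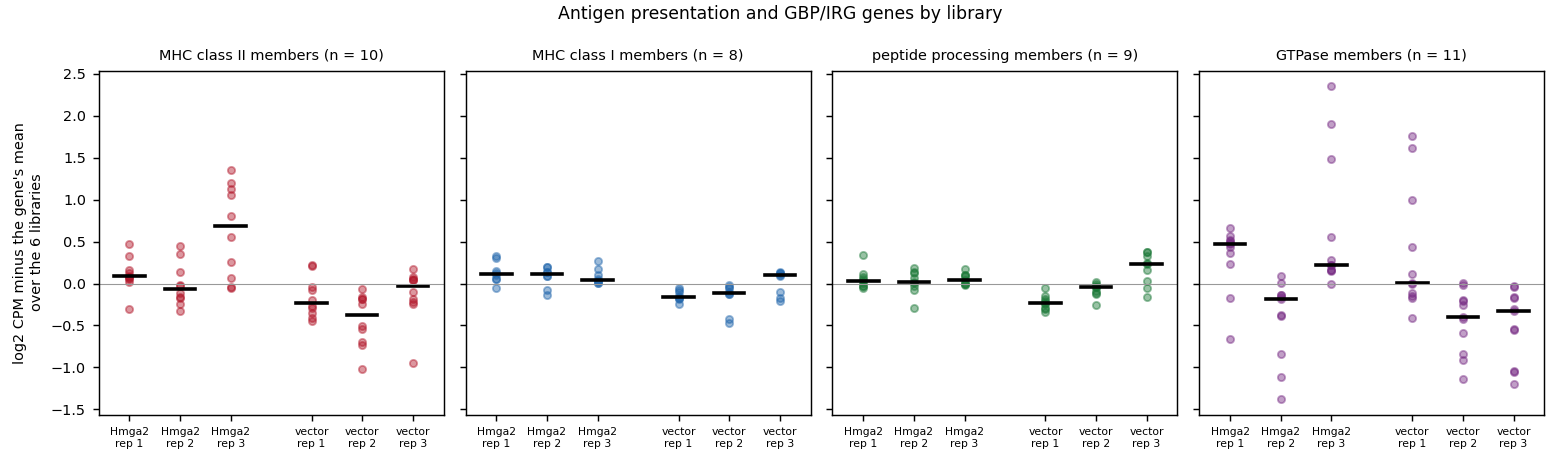
Level of each member in each library as log2 CPM minus the gene's mean over the 6 libraries (points), with the class median as a bar, for libraries labelled Hmga2 (left) and vector (right) in each panel. The class II median is highest in Hmga2 replicate 3 (0.68), and 3 GTPase points stand far above the rest in Hmga2 replicate 3 and in vector replicate 1.

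All 10 class II genes had a positive log2 fold change, from 0.13 to 0.91, with a median of 0.54. The groups did not overlap for 3 (30.0%), all higher in the libraries labelled Hmga2, against 5.28% of all genes. None passed over all genes in edgeR (smallest unadjusted p = 0.013, adjusted p = 0.855).

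The chains of the class II molecules were higher in every library labelled Hmga2 for 2 of the 3 genes. H2-Aa, the alpha chain of I-A, had 131, 108 and 245 CPM in the libraries labelled Hmga2, against 102, 72.5 and 101 CPM in the vector libraries. The groups did not overlap, but Hmga2 replicate 2 lay only 6.02 CPM above the highest vector library. Its log2 fold change was 0.81 (SE 0.31, 95% interval 0.09 to 1.53, adjusted p = 0.855, edgeR).
H2-Eb1, the beta chain of I-E, had 100.4, 91.4 and 202 CPM in the libraries labelled Hmga2, against 76.4, 55.4 and 78.1 CPM in the vector libraries. Again all 3 of the first group lay above all 3 of the second, with Hmga2 replicate 3 far above the rest. The log2 fold change was 0.91 (SE 0.31, 95% interval 0.17 to 1.64, adjusted p = 0.855, edgeR). The partner of this chain is not made in C57BL/6 mice, and H2-Ea-ps was listed at 0 in all 6 libraries. H2-Ab1, the beta chain of I-A, had 131, 128 and 227 CPM in the libraries labelled Hmga2, against 102, 91.9 and 136 CPM in the vector libraries, where vector replicate 3 reached into the other group (log2 fold change 0.56, SE 0.25).

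Cd74, the invariant chain, had the highest level per kilobase of the class, a mean of 136 CPM per kilobase in the libraries labelled Hmga2 and 88.8 in the vector libraries. By library it had 133, 131 and 421 CPM in those labelled Hmga2, against 192, 81.5 and 174 CPM in the vector libraries. Only Hmga2 replicate 3 exceeded all 3 vector libraries, and the log2 fold change of 0.61 (SE 0.52) was -0.17 without that library. Ciita, the transactivator that switches on the class II genes, had 8.68, 5.82 and 15.9 CPM in the libraries labelled Hmga2, against 8.004, 4.73 and 3.56 CPM in the vector libraries. The groups overlapped, and the log2 fold change was 0.90 (SE 0.44), and 0.42 without Hmga2 replicate 3.

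**Figure D2:**
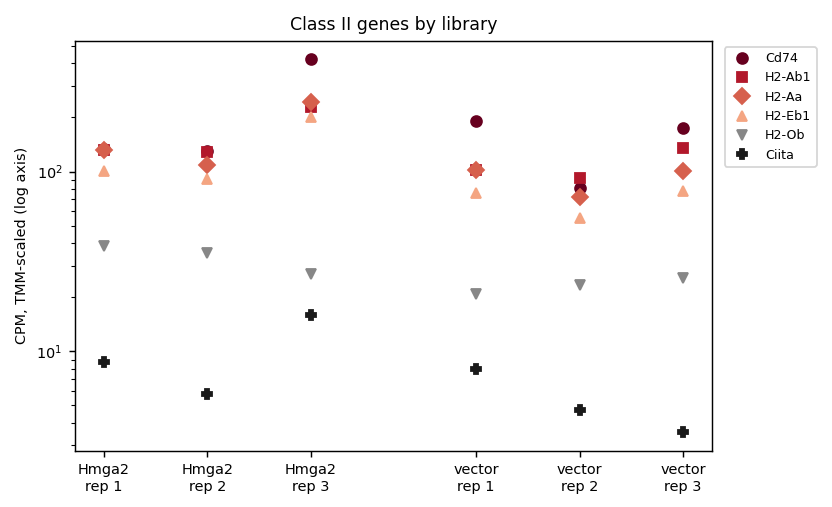
CPM of 6 class II genes in each library on a log axis, with libraries labelled Hmga2 on the left and vector on the right. Cd74, H2-Ab1, H2-Aa, H2-Eb1 and Ciita are each highest in Hmga2 replicate 3, whereas H2-Ob is lowest there among the libraries labelled Hmga2.

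Of the 5 genes that edit class II peptides, H2-DMb1 and H2-DMb2 were highest in Hmga2 replicate 3, and H2-DMa, H2-Oa and H2-Ob were not. H2-Ob, the beta chain of DO, had the smallest p-value of the 38 (unadjusted p = 0.013). It had 38.4, 35.3 and 26.8 CPM in the libraries labelled Hmga2, against 20.8, 23.4 and 25.7 CPM in the vector libraries. The groups did not overlap, with a gap of 1.08 CPM. The log2 fold change was 0.52 (SE 0.16, adjusted p = 0.855, edgeR), and 0.66 without Hmga2 replicate 3. H2-Oa, its alpha chain, had 13.8, 18.1 and 13.0 CPM in the libraries labelled Hmga2, against 9.77, 12.8 and 13.7 CPM in the vector libraries, and overlapped. H2-DMa and H2-DMb1, the DM chains that exchange peptides, averaged 144 ± 3.50 and 43.6 ± 6.29 CPM in the libraries labelled Hmga2, against 128 ± 21.5 and 39.8 ± 3.01 CPM in the vector libraries (SD, n = 3 each). H2-DMb2, the other DM beta chain, averaged 9.98 ± 2.68 CPM in the libraries labelled Hmga2 and 7.90 ± 0.36 CPM in the vector libraries.

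Of the 10 class II genes, 7 had their highest level in Hmga2 replicate 3, and the class median of the log2 fold changes was 0.31 without it. Markers of dendritic cells, which carry much class II, were also highest in sum in that library. Summed without Flt3, which progenitors express too, 7 dendritic markers came to 15.6, 15.7 and 46.1 CPM in the libraries labelled Hmga2, against 21.1, 28.4 and 21.6 CPM in the vector libraries. Itgax, which encodes the integrin CD11c, was at 30.3 CPM in Hmga2 replicate 3, against 7.12 and 8.78 CPM in the other libraries labelled Hmga2 and 7.28, 17.3 and 13.9 CPM in the vector libraries. Of these 7 markers Clec9a, Xcr1, Cd209a and Ccr7 were also highest there, at 5.68, 3.06, 2.302 and 1.66 CPM. Zbtb46, a transcription factor of conventional dendritic cells, was not, with 3.674, 3.155 and 2.826 CPM in the libraries labelled Hmga2 and 6.554, 6.496 and 3.684 CPM in the vector libraries. Siglech of plasmacytoid dendritic cells was under the count filter. The summed list of 8 monocyte and macrophage markers came to 129.6, 158 and 276 CPM in the libraries labelled Hmga2, against 163, 334 and 253 CPM in the vector libraries. Csf1r and Ly6c2 weighed most in that sum, and Ly6c2 reached 145 CPM in vector replicate 2. Of the 8, 5 (Adgre1, C1qa, C1qb, Mrc1 and Vcam1) were highest in Hmga2 replicate 3, at 13.3, 42.3, 55.1, 4.87 and 7.02 CPM. For C1qb and Vcam1 the margin was small, with 54.0 CPM of C1qb in vector replicate 3 and 6.995 CPM of Vcam1 in vector replicate 1. The 8 B cell markers summed to between 27.9 and 43.2 CPM in the libraries labelled Hmga2 and between 30.9 and 49.3 CPM in the vector libraries, with Pax5 at or near 0. The part of these cells in the class II difference was not tested. Within the immunoglobulin-rich libraries the class median was 0.12 (7 positive, 3 negative), and within the others it was 0.71.

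As a mean over the 6 libraries, B2m, H2-K1, H2-D1, H2-Q7 and H2-Q4 were each above every class II gene per kilobase. This order did not hold in Hmga2 replicate 3. There Cd74 had 421 CPM on 1679 merged exon bases. That was higher per kilobase than H2-Q7 (858 CPM on 4265 bases) and H2-Q4 (376 CPM on 2596 bases). All 8 class I genes had a positive log2 fold change, from 0.04 to 0.34, with a median of 0.21. The groups did not overlap for 2 (25.0%), both higher in the libraries labelled Hmga2, against 5.28% of all genes. None passed over all genes in edgeR (smallest unadjusted p = 0.028).

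B2m, the light chain of every class I molecule, had the highest level per kilobase of the 38 genes, a mean of 1915 CPM per kilobase over the 6 libraries. By library it had 1702, 1755 and 1699 CPM in those labelled Hmga2, against 1461, 1510 and 1753 CPM in the vector libraries. Vector replicate 3 lay level with the libraries labelled Hmga2, and the log2 fold change was 0.13 (SE 0.11, 95% interval from -0.12 to 0.37). The classical heavy chains H2-K1 and H2-D1 came next, at a mean of 665 and 506 CPM per kilobase, with log2 fold changes of 0.13 and 0.04 and overlapping groups.

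H2-Q4 and H2-Q7, non-classical genes of the Q region, were the class I members whose groups did not overlap. H2-Q4 had 409, 406 and 376 CPM in the libraries labelled Hmga2, against 356, 344 and 328 CPM in the vector libraries. That gave a log2 fold change of 0.21 (SE 0.08, unadjusted p = 0.028, adjusted p = 0.855, edgeR). H2-Q7, which encodes a Qa-type molecule, had 918, 981 and 858 CPM in the libraries labelled Hmga2, against 755, 841 and 794 CPM in the vector libraries. Its lowest library labelled Hmga2 stood 16.9 CPM above its highest vector library, with a log2 fold change of 0.21 (SE 0.09). Among Q-region genes outside the class I members, H2-Q2 and H2-Q6 overlapped. H2-Q1 and H2-Q10 did not, and both were higher in the libraries labelled Hmga2, against 5.28% of all genes. For H2-Q1 the lowest library labelled Hmga2 had 31.5 CPM and the highest vector library 30.9 CPM (log2 fold change 0.09, SE 0.08). H2-Q6 had 554, 601 and 482 CPM in the libraries labelled Hmga2, against 489, 581 and 440 CPM in the vector libraries. The log2 fold change of H2-Q6 was 0.12 (SE 0.13). H2-T23, whose product presents leader peptides of other class I molecules, averaged 266 ± 9.66 CPM in the libraries labelled Hmga2 and 222 ± 45.3 CPM in the vector libraries (SD, n = 3 each). H2-M3, which presents formylated peptides, averaged 23.4 ± 3.46 CPM in the libraries labelled Hmga2 and 18.5 ± 3.78 CPM in the vector libraries. H2-K1, H2-D1 and the Q-region genes are similar in sequence. How reads shared between them were counted was not measured here, so their separate levels are uncertain.

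Nlrc5, the class I transactivator, had 170, 125 and 155 CPM in the libraries labelled Hmga2, against 128, 134 and 119 CPM in the vector libraries. Hmga2 replicate 2 lay within the vector range, and the log2 fold change was 0.24 (SE 0.12). The class I median was 0.15 within the immunoglobulin-rich libraries and 0.18 within the others, and ranged from 0.16 to 0.23 with each library left out in turn.

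Of the 9 peptide processing genes, the groups did not overlap for 2 (22.2%), the transporter subunits Tap1 and Tap2. Both were higher in the libraries labelled Hmga2, against 5.28% of all genes. Tap1 had 338, 346 and 335 CPM in the libraries labelled Hmga2, against 276, 289 and 302 CPM in the vector libraries. The lowest library labelled Hmga2 was 33.2 CPM above the highest vector library, with a log2 fold change of 0.23 (SE 0.07, unadjusted p = 0.014, adjusted p = 0.855, edgeR). Tap2, its partner, had 272, 286 and 269 CPM in the libraries labelled Hmga2, against 222, 257 and 267 CPM in the vector libraries, where the gap was only 1.57 CPM (log2 fold change 0.15, SE 0.09). Tapbp, which bridges Tap to class I, averaged 200.3 ± 7.09 CPM in the libraries labelled Hmga2 and 199 ± 22.3 CPM in the vector libraries. Erap1, which trims peptides in the endoplasmic reticulum, averaged 131 ± 28.2 CPM in the libraries labelled Hmga2 and 117 ± 6.5 CPM in the vector libraries.

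The class as a whole had 6 positive and 3 negative log2 fold changes, a median of 0.05 and a range from -0.09 to 0.23. Psme1, a subunit of the PA28 proteasome activator and the highest of the class per kilobase, had 326, 339 and 335 CPM in the libraries labelled Hmga2, against 288, 325 and 395 CPM in the vector libraries. The values of the first group lay inside the range of the second, and the log2 fold change was -0.01 (SE 0.12). Psme2, its partner subunit, and Psmb10 were the other negative members, at -0.09 and -0.05. The vector libraries ranked alike for most of the class. Among them replicate 3 was highest and replicate 1 lowest for Tap1, Tap2, Tapbp, Psme1, Psme2, Psmb8, Psmb9 and Psmb10, but not for Erap1. Without vector replicate 3 the class median was 0.15, and without vector replicate 1 it was -0.06.

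The inducible catalytic subunits Psmb8, Psmb9 and Psmb10 replace Psmb5, Psmb6 and Psmb7 in the immunoproteasome, so each was also read as a ratio of CPM to the subunit it replaces. Psmb9 itself had 180.5, 196 and 183 CPM in the libraries labelled Hmga2, against 136, 144 and 202 CPM in the vector libraries, with vector replicate 3 the highest of all (log2 fold change 0.21, SE 0.15). The ratio of Psmb9 to Psmb6 was 1.28, 1.23 and 1.24 in the libraries labelled Hmga2, against 0.932, 0.902 and 1.11 in the vector libraries. These groups did not overlap. The ratio of Psmb8 to Psmb5 was 3.33, 2.76 and 3.26 in the libraries labelled Hmga2, against 2.53, 2.60 and 2.88 in the vector libraries. The ratio of Psmb10 to Psmb7 was 0.918, 0.882 and 0.902 in the libraries labelled Hmga2, against 0.801, 0.794 and 0.934 in the vector libraries. Both of these overlapped, through vector replicate 3. The ratios are compared between libraries and not with each other, since gene length differs, and no test was made of them. Psmb9 and Tap1 overlap on opposite strands, with strand use in counting not given in the sources used here.

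**Figure D3:**
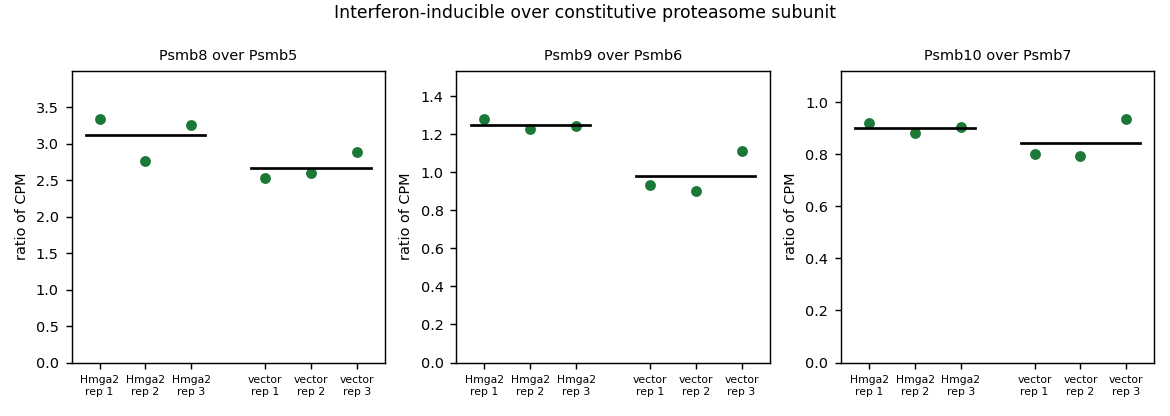
Ratio of CPM of each interferon-inducible proteasome subunit to the constitutive subunit it replaces, by library (points) with group means (bars), libraries labelled Hmga2 on the left. The ratio of Psmb9 to Psmb6 is above 1.2 in every library labelled Hmga2 and at most 1.11 in the vector libraries.

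The GTPase genes all had a positive log2 fold change, from 0.16 to 0.58, with a median of 0.44. For 2 of the 11 (18.2%) the groups did not overlap, both higher in the libraries labelled Hmga2, against 5.28% of all genes. None passed over all genes in edgeR (smallest unadjusted p = 0.015).

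Gbp2, a guanylate-binding protein gene of the chromosome 3 cluster, had 68.5, 51.1 and 53.6 CPM in the libraries labelled Hmga2, against 48.3, 35.9 and 38.3 CPM in the vector libraries. All 3 of the first group were above the second, with a log2 fold change of 0.50 (SE 0.16, 95% interval 0.13 to 0.87, adjusted p = 0.855, edgeR). Its neighbours Gbp3, Gbp5 and Gbp7 were highest in Hmga2 replicate 1, at 122, 33.1 and 66.3 CPM, and had log2 fold changes of 0.35, 0.38 and 0.47. In each of these neighbours at least 1 library labelled Hmga2 lay within the vector range.

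Irgm2, one of the regulatory Irg proteins that hold the others in check, had 68.1, 49.5 and 57.3 CPM in the libraries labelled Hmga2, against 49.1, 37.2 and 39.7 CPM in the vector libraries. Hmga2 replicate 2 and vector replicate 1 were only 0.37 CPM apart, and the log2 fold change was 0.47 (SE 0.15, adjusted p = 0.855, edgeR). Igtp, another regulatory Irg gene and the highest GTPase per kilobase, had 103, 69.2 and 85.0 CPM in the libraries labelled Hmga2, against 70.3, 66.1 and 68.1 CPM in the vector libraries. Hmga2 replicate 2 lay within the vector range, and the log2 fold change was 0.33 (SE 0.14). Irgm1, the remaining regulatory member, averaged 88.3 ± 16.3 CPM in the libraries labelled Hmga2 and 78.9 ± 4.56 CPM in the vector libraries (SD, n = 3 each). Iigp1, an effector that coats parasite vacuoles in mice, had 37.3, 19.97 and 38.4 CPM in the libraries labelled Hmga2, against 35.4, 17.3 and 17.8 CPM in the vector libraries (log2 fold change 0.44, SE 0.35). Igtp and Irgm2 overlap on 1 strand and have similar sequences, so reads could be divided wrongly between them.

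The Gbp genes of chromosome 5, Gbp4 (chr5:105115767-105139586), Gbp9 (chr5:105077630-105139539) and Gbp6 (chr5:105270702-105293698) in mm10, followed 2 libraries and not the labels. Gbp4 had 1.36, 0.976 and 11.5 CPM in the libraries labelled Hmga2, against 7.59, 0.961 and 0.921 CPM in the vector libraries, a 12.4-fold range from the lowest to the highest library. Gbp9 had 1.13, 0.455 and 4.98 CPM in the libraries labelled Hmga2, against 4.06, 0.653 and 0.586 CPM in the vector libraries. Gbp6 had 4.83, 2.28 and 11.6 CPM in the libraries labelled Hmga2, against 8.26, 2.27 and 1.97 CPM in the vector libraries. In each gene, Hmga2 replicate 3 and vector replicate 1 stood above the other 4 libraries, while the chromosome 3 genes ranged no more than 2.19-fold over the 6 libraries.
The log2 fold changes of these 3 genes, between 0.30 and 0.58, had standard errors of 0.73 to 1.154 and were negative without Hmga2 replicate 3, at -1.44 for Gbp4, -0.23 for Gbp6 and -1.16 for Gbp9. Gbp8 and Gbp10, the other tested members of that group, showed the same pair of libraries on top, at 5.65 and 3.70 CPM in Hmga2 replicate 3 and 4.85 and 3.06 CPM in vector replicate 1, with the others at 1.89 CPM or below. Gbp4, Gbp8 and Gbp9 overlap on 1 strand. Over all genes tested, 1211 of 16739 (7.23%) had these 2 libraries above the other 4, against 4 of the 38, the fourth being Cd74. The marker Klrb1c of natural killer cells (3.61 CPM in Hmga2 replicate 3 and 5.23 CPM in vector replicate 1, against at most 1.10 CPM in the others) shared the order. Its part in it was not tested. The chromosome 5 genes were singled out after their values were seen.

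**Figure D4:**
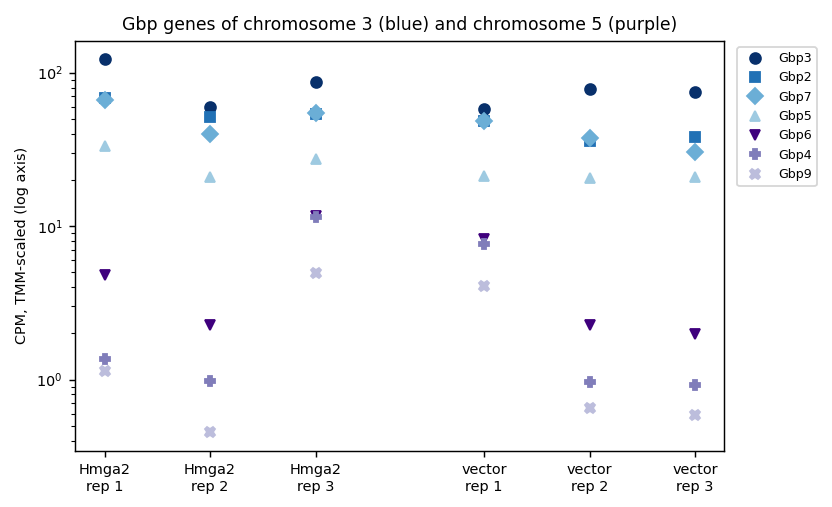
CPM of 7 Gbp genes by library on a log axis, with the chromosome 3 cluster in blue and the chromosome 5 cluster in purple, libraries labelled Hmga2 on the left. The chromosome 5 genes are highest in Hmga2 replicate 3 and in vector replicate 1, at 4.06 CPM or more, and the chromosome 3 genes stay between 20.4 and 122 CPM.

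Within the immunoglobulin-rich libraries the GTPase median of the log2 fold changes was -0.033 (4 positive, 7 negative), and within the others it was 0.75. With a term for Y-linked transcripts it was 0.020, and 5 of the 11 genes (Gbp3, Gbp4, Gbp6, Gbp9 and Irgm1) had a negative value. Without vector replicate 1 the median was 0.64. The GTPase difference between the labels thus did not hold within the immunoglobulin-rich libraries, where Hmga2 replicate 2 was the lone library with its label.

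Of genes upstream and beside the pathway, 51 of 58 listed symbols were tested. edgeR called 0 of them and DESeq2 0. At an unadjusted p under 0.05 (edgeR), 6 (11.8%) were higher in the libraries labelled Hmga2, against 2.23% of all genes, and 0 were lower. Among 11 tested genes of interferon gamma signalling, 7 were positive and the median was 0.14. Irf2, a transcription factor of the interferon response, had 77.8, 76.3 and 74.1 CPM in the libraries labelled Hmga2, against 73.3, 59.0 and 64.4 CPM in the vector libraries. The groups did not overlap, and the log2 fold change was 0.21 (SE 0.10, adjusted p = 0.855, edgeR). Ifng itself was at 0.0583 CPM in Hmga2 replicate 3 and listed at 0 in the other 5 libraries.

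The factors that bind class II promoters were 4 positive and 3 negative, with a median of 0.04. Rfx5, a subunit of the factor at the X box, had 56.5, 53.6 and 52.2 CPM in the libraries labelled Hmga2, against 47.7, 42.9 and 47.5 CPM in the vector libraries (log2 fold change 0.23, SE 0.08, adjusted p = 0.855, edgeR). Nfya, Nfyb and Nfyc, the subunits of NF-Y, had log2 fold changes of 0.15, 0.04 and -0.12. Proteases and other genes of class II peptide supply were 1 positive and 4 negative among 5 tested, with Ctsl, a lysosomal protease, at -0.41.

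The 9 other interferon-inducible GTPases tested were all positive, with a median of 0.40. Tgtp1 and Tgtp2, near-identical Irg genes, had 198, 140 and 162 CPM and 214, 156 and 173 CPM in the libraries labelled Hmga2, against 119, 121 and 135 CPM and 129, 135 and 147 CPM in the vector libraries. The 6 tested genes of constitutive subunits, other activators and assembly were all negative, from -0.16 to -0.06. Of 9 other class I-like genes 7 were positive, and H2-Q10 had 103, 86.6 and 87.1 CPM in the libraries labelled Hmga2, against 78.2, 80.1 and 67.9 CPM in the vector libraries. Class I loading chaperones were 2 positive and 2 negative, with Calr at -0.16.

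**Figure D5:**
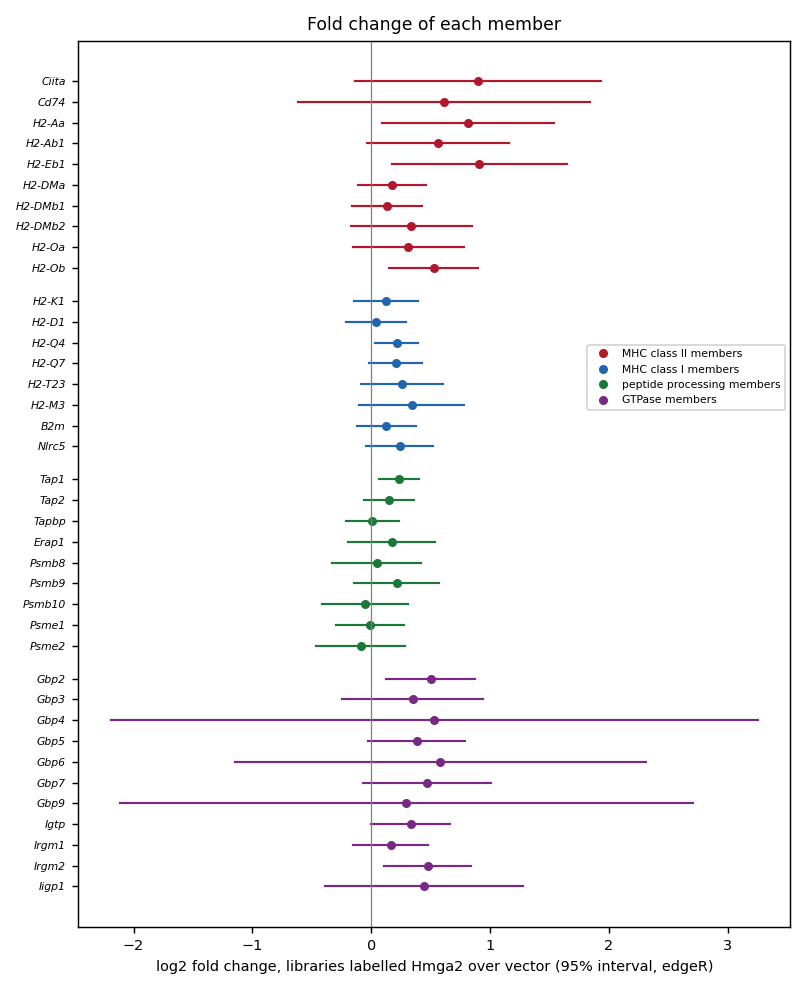
Log2 fold change of each of the 38 genes, libraries labelled Hmga2 over vector, with the 95% interval of the edgeR fit. Of the intervals, those of H2-Aa, H2-Eb1, H2-Ob, H2-Q4, Tap1, Gbp2 and Irgm2 lie above 0, and Gbp4, Gbp6 and Gbp9 have the widest.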

How the data were processed

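The authors deposited 1 table of expected counts (estimated, by gene symbol) per library, as judged from the values: none was negative, and 67.3% to 70.1% of values above 0 were whole within 1e-06. Per the submitters' processing notes, Partek 3.0 and Bowtie2 were used with build mm10. Not given in the sources used here were the counter, its annotation and its use of strand. Counts were rounded and fitted over all genes with edgeR 4.0.16 in R 4.3.3 (filterByExpr, TMM, quasi-likelihood test on group alone, Benjamini-Hochberg adjustment, threshold 0.05). DESeq2 1.42.0 was the other tool. CPM values were scaled by TMM factors, except summed Y-linked transcripts, which refer to library totals. Values per kilobase used merged exons of GENCODE M21, annotated on mm10, which includes exons of rare isoforms. Replicate pairs differed beyond sampling noise, with a chi-square of 24.8 to 57 per degree of freedom. The floor of 3 reads was worth 0.0846 to 0.121 CPM and covers counting error alone. The steps were tested on simulated counts with 200 changed genes. They recovered 64 of 100 2-fold changes and 96 of 100 4-fold changes, with 15 false calls. Changes smaller than 2-fold were not simulated. The changed genes were drawn above a set mean level, which Gbp4 and Gbp9 do not reach. Counts were drawn independently for each gene, without the immunoglobulin and Y-linked differences between libraries.

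The members, lists and alternatives were chosen with earlier results of these data known. The rule for genes given in every library took, per class, the highest level per kilobase, the 3 smallest p-values and members whose groups did not overlap, and up to 2 genes per pathway list. Ciita, H2-Ab1, H2-Oa, Irgm1, Iigp1, Gbp4, Gbp6, Gbp8, Gbp9, Gbp10, Psmb8, Psmb10, Klrb1c, the dendritic markers and the genes named by value only fall outside it. The rule also named protein stretches, which are not shown. Values of some listed genes are not reported here. Libraries were called immunoglobulin-rich above 1000 CPM of Igha. Alternative fits added a term for these libraries or for summed Y-linked transcripts.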

Additional observations from a re-analysis of the deposited data

How the results depend on the processing

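The 38 genes were not called under any alternative. Over all genes, edgeR called 0, against 71 with DESeq2, 1 without the count filter, 1 with a term for Y-linked transcripts and 0 with a replicate block. The replicate block used the numbers in the titles, which did not pair the libraries: same-numbered deviations correlated at -0.21, -0.50 and -0.26, and no library correlated best with its own number. With the block the class medians were 0.50, 0.21, 0.07 and 0.36 (class II, class I, processing, GTPase). With each library left out in turn these medians ranged from 0.31 to 0.64, 0.16 to 0.23, -0.06 to 0.15 and 0.31 to 0.64. The class II median was 0.12 within immunoglobulin-rich libraries and 0.23 without both Hmga2 replicate 3 and vector replicate 1, an alternative chosen after seeing the data. The GTPase median was 0.020 with a term for Y-linked transcripts, and -0.033 and 0.75 within and outside immunoglobulin-rich libraries. The causes were not tested.

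Of the 38 genes, 25 kept their sign under every alternative fitted to all groups and 13 did not. Within the immunoglobulin-rich libraries, 15 were negative. With each library left out in turn, values ranged from -0.17 to 0.89 for Cd74, -0.019 to 0.13 for H2-D1, -0.059 to 0.11 for Tapbp, -0.08 to 0.25 for Psmb8, -0.18 to 0.15 for Psmb10, -0.11 to 0.13 for Psme1, -0.24 to 0.11 for Psme2, -1.44 to 2.28 for Gbp4, -0.23 to 1.56 for Gbp6 and -1.16 to 1.81 for Gbp9. Without both Hmga2 replicate 3 and vector replicate 1, H2-D1 was at -0.019, Tapbp at -0.05, Psmb8 at -0.11 and Psme2 at -0.25. With a term for Y-linked transcripts, values were -0.12 for Erap1, 0.0083 for Psmb10, 0.029 for Psme1, -0.10 for Gbp3, -0.87 for Gbp4, -0.34 for Gbp6, -1.13 for Gbp9 and -0.014 for Irgm1. With a term for immunoglobulin-rich libraries Psme1 was at 0.0071 and Gbp9 at -0.033, and with the block Psme1 was at 0.0013.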
